A study of Mus musculus with 4 samples.

Results

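The genes described here make cholesterol, control its synthesis through the transcription factor SREBP2, or move and store it inside the cell. They were measured by RNA sequencing in CD4+ dendritic cells of the mouse spleen, cells that take up antigen and present it to T cells. A list of 29 gene symbols defined the members, and a locus of the deposited table belonged to them when its gene name, split at commas, was on the list. By this rule 29 of the 30043 loci were members, and they covered 28 of the 29 genes, since Mvd stood on a pair of loci. The remaining gene, Msmo1, was listed under its older symbol Sc4mol, as RefSeq pairs them. It was described with the members and counted apart from them.

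The cells came from mice that had received sheep red blood cells (SRBC, 1000000000 cells) for 1 h, with 2 libraries, or phosphate-buffered saline (PBS, 100 uL) for 1 h, also with 2 libraries. All mice, controls included, were C57BL/6 and heterozygous for GPR183 (Gpr183), the gene of a receptor for oxysterols, so no library represents the wild type. The sort took CD4+ cells that also carried CD11c and the MHC class II molecule I-Ab but lacked CD8, at a stated purity above 99%. Neither the age nor the sex of the mice is stated in the sources. The labels also leave unsaid whether the 2 libraries of a group are from different animals. The p-values below therefore reflect the spread between these libraries alone, which may be technical.

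Animal cells build cholesterol from acetyl-CoA through mevalonate, the isoprenoid diphosphates, squalene and lanosterol. The same early steps supply the isoprenoid groups that anchor small GTPases to membranes. SREBP2 switches on most genes of the route. It is held in the endoplasmic reticulum with its escort SCAP by the INSIG proteins when sterols are plentiful, and it travels to the Golgi for cleavage when they are scarce. In dendritic cells cholesterol is part of the membranes that carry MHC molecules and receptors, and its oxidized products are ligands of GPR183.

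Levels are in FPKM, a fragment count divided by transcript length and library size, so that levels of different genes can be compared. Summed FPKM was 509007 and 558016 in SRBC libraries 1 and 2, against 410321 and 377167 in PBS libraries 1 and 2. No read totals came with the table. The spacing of the lowest values placed depth near 8450000 and 8250000 fragments in the SRBC libraries and 8150000 and 8550000 in the PBS libraries, from a weak periodicity, so that at 2 kb of transcript length each FPKM unit was worth roughly 16.3 to 17.1 fragments. Itgax, which encodes CD11c, stood at 222 and 253 FPKM after SRBC, against 180 and 212 after PBS. Cd4 stood at 75.8 and 96.4 FPKM after SRBC, against 88.4 and 86.6 after PBS, and Cd8a at 2.43 and 2.46 after SRBC, against 2.63 and 1.20 after PBS. Of 8 markers listed for the sorted cells, 3 were higher after SRBC in the limma fit below (H2-Ab1, Zbtb46 and Irf4) and 1 lower (Clec4a4). Mean FPKM of Irf4 was 294 after SRBC and 66.8 after PBS, and that of Clec4a4 was 1.83 and 5.72. Itgax, Cd4, Flt3 and Sirpa were not called. Xist, transcribed from the inactive X chromosome, stood at 339 and 306 FPKM after SRBC, against 0.210 and 0.327 after PBS, and the Y-linked Ddx3y at 0.0307 and 0.00819 after SRBC, against 17.2 and 20.4 after PBS. Sex and treatment therefore cannot be told apart in any comparison below.

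Some enzymes of cholesterol synthesis rose after SRBC: Hmgcs1, Pmvk, Idi1, Sqle, Cyp51 and Msmo1 were 2.03- to 2.62-fold higher by mean FPKM. Others of the same early and middle steps, Acat2, Mvk, the locus named for Mvd alone, Fdps, Ggps1, Fdft1 and Lss, were not called. None of the members in SREBP2 control or sterol handling was called in either direction. Of the 29 member loci, all of which passed the filter on low values, 6 were higher and 0 lower after SRBC in the limma fit across 11020 loci (adjusted p under 0.05). Over all tested loci 13.5% were higher and 6.2% lower, and 6 of 29 is 20.7%. In this fit that share lies near the background. The median log2 fold change of the members was 0.15, beside 0.07 over all tested loci, and ran from -0.61 to 1.31. Along the pathway the calls fell on 4 of 9 loci of the mevalonate and isoprenoid steps, 2 of 10 of the squalene and sterol steps, 0 of 6 of SREBP2 control and 0 of 4 of sterol handling. With loci of a single name and Msmo1 added, the first 2 of these counts were 3 of 8 and 3 of 10. Whether these shares differ from each other was not tested. In these bulk samples fewer cells of a type and less RNA per cell cannot be told apart. How libraries were scaled moved the counts and the shares over all tested loci. With median-of-ratios rescaling 7 members were higher and 1 lower, beside 12.4% and 8.85% of all tested loci. With upper-quartile rescaling 6 and 1 were, beside 9.27% and 12.9%. Quantile normalization gave 5 and 1, beside 8.37% and 8.44%, and rescaling to TPM gave 2 and 1, beside 5.71% and 15%. The median of all tested loci moved to -0.33 with TPM and -0.14 with upper-quartile rescaling. Without SRBC library 2 the count was 2 higher and 0 lower, and with no filter on low values, where 23657 loci were tested, no member was called. With a minimum FPKM of 5, which 19 members passed, 9 were higher, beside 19.7% of all loci that passed, and such a filter keeps some members only through the group where they are high.

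**Figure D1:**
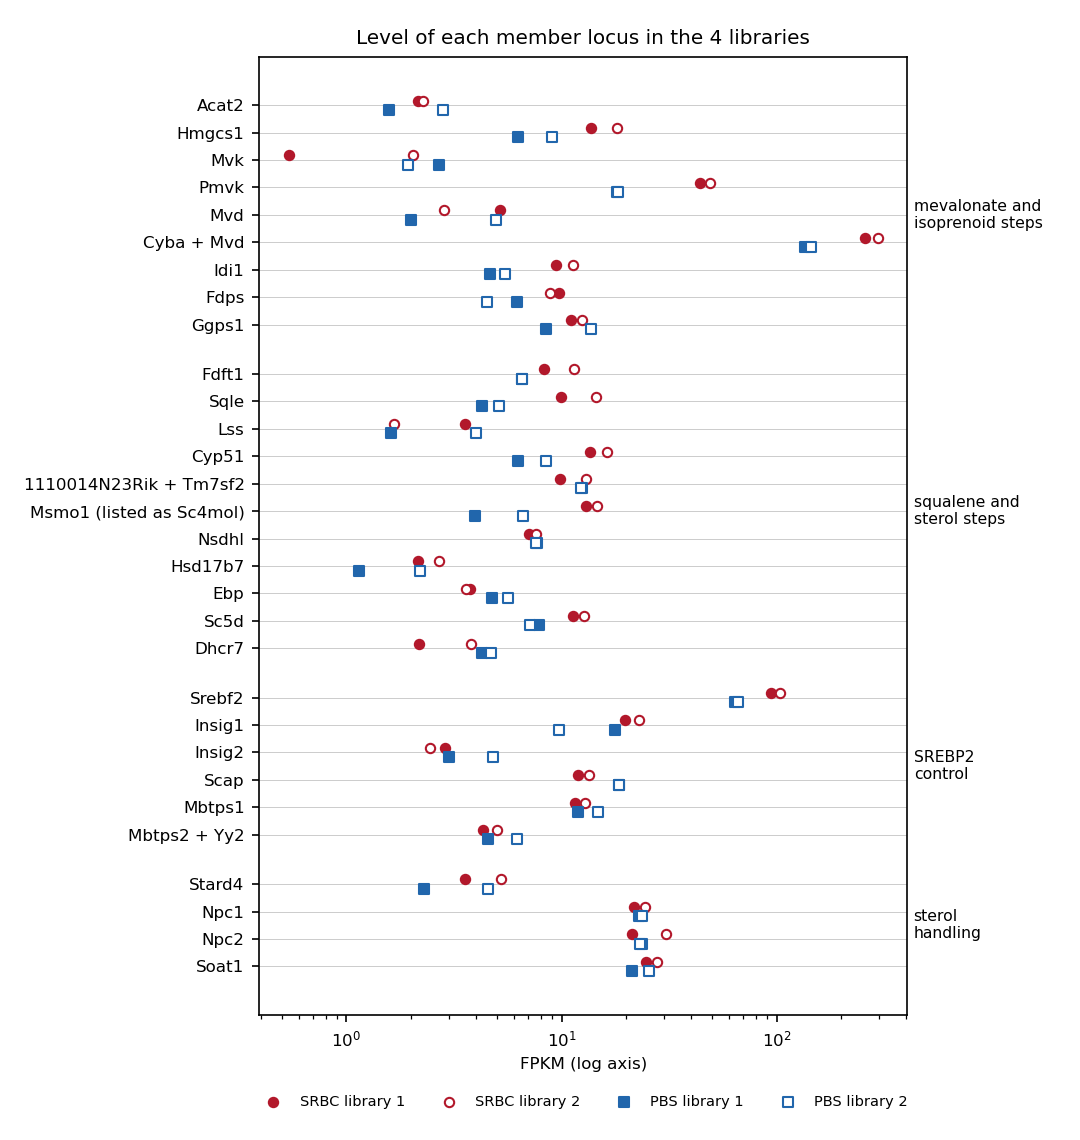
FPKM of every member locus (rows, in pathway order) in SRBC libraries (red circles) and PBS libraries (blue squares) on a log axis, with library 1 filled and library 2 open. Pmvk, Hmgcs1, Sqle, Cyp51 and Msmo1 show both SRBC libraries to the right of both PBS libraries, while Lss, Acat2 and the locus named for Mvd alone overlap between groups.

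The mevalonate steps opened with a gene that overlapped between groups. Acat2, the cytosolic thiolase that joins acetyl-CoA units, stood at 2.14 and 2.26 FPKM after SRBC, against 1.58 and 2.83 after PBS. Hmgcs1 (chr13:119690351-119708260, build GRCm38.p6 as for all positions here), the cytosolic synthase that makes HMG-CoA, stood at 13.7 and 18.1 FPKM after SRBC, against 6.26 and 9.05 after PBS. Both SRBC libraries lay above both PBS libraries, with means of 15.9 ± 3.12 FPKM after SRBC and 7.66 ± 1.98 FPKM after PBS (SD, n = 2 each), and Hmgcs1 rose with a log2 fold change of 0.97 ± 0.26 (SE, limma adjusted p = 0.0064). Besides the fit with no filter, that call was lost with TPM rescaling (log2 fold change 0.60, adjusted p = 0.15) and without SRBC library 2 (0.78, adjusted p = 0.22).

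Pmvk (chr3:89454541-89469014), the kinase that adds the next phosphate to phosphomevalonate, was the most abundant enzyme of the route with a locus of its own. It stood at 44.1 and 49.1 FPKM after SRBC, against 18.1 and 18.4 after PBS, with means of 46.6 ± 3.51 FPKM after SRBC and 18.2 ± 0.218 FPKM after PBS (SD, n = 2 each). Pmvk had a log2 fold change of 1.31 ± 0.22 (SE, limma adjusted p = 4.8e-05), and it was called in 13 of 14 alternatives, the exception being the fit with no filter on low values (adjusted p = 0.065). Idi1 (chr13:8885606-8892396), the isomerase that interconverts the isoprenoid diphosphates, stood at 9.41 and 11.4 FPKM after SRBC, against 4.65 and 5.44 after PBS. The groups did not overlap, with means of 10.4 ± 1.38 FPKM after SRBC and 5.05 ± 0.561 FPKM after PBS (SD, n = 2 each), and Idi1 rose with a log2 fold change of 0.91 ± 0.26 (SE, limma adjusted p = 0.012). Its call was also lost with TPM rescaling (0.56, adjusted p = 0.18), without SRBC library 1 (1.03, adjusted p = 0.066) and without SRBC library 2 (0.79, adjusted p = 0.26).

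Not every locus of this stretch was called. Mvk, which phosphorylates mevalonate, stood at 0.539 and 2.03 FPKM after SRBC, against 2.68 and 1.94 after PBS, and the groups overlapped (log2 fold change -0.61, limma adjusted p = 0.19). Mvd encodes the decarboxylase that makes isopentenyl diphosphate. The locus named for Mvd alone stood at 5.15 and 2.84 FPKM after SRBC, against 1.999 and 4.97 after PBS, and the groups overlapped. A further locus carried the names Cyba and Mvd, neighbours on chromosome 8, and its reads cannot be assigned to either gene. It stood at 257 and 295 FPKM after SRBC, against 136 and 145 after PBS, and was higher (log2 fold change 0.97 ± 0.22 SE, limma adjusted p = 0.0020). The shared locus lost its call with quantile normalization (0.34, adjusted p = 0.10), with TPM rescaling (0.53, adjusted p = 0.066) and with no filter on low values. Cyba encodes a subunit of the phagocyte NADPH oxidase, and the level of this shared locus was far above that of the locus named for Mvd alone. Without loci of several names the members called higher were 5 of 26, or 19.2%.

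Downstream of Idi1 the branch enzymes differed from each other in value. Fdps, which makes farnesyl diphosphate, stood at 9.76 and 8.87 FPKM after SRBC, against 6.24 and 4.52 after PBS. Both SRBC libraries lay above both PBS libraries, but Fdps did not pass the test (log2 fold change 0.70 ± 0.26 SE, limma adjusted p = 0.058). It was called in 3 of 14 alternatives, with a log2 fold change between 0.35 and 0.90. Ggps1, which makes geranylgeranyl diphosphate for protein prenylation, stood at 11.1 and 12.4 FPKM after SRBC, against 8.47 and 13.7 after PBS, and overlapped. The 8 mevalonate and isoprenoid loci of a single name summed to 95.9 and 107 FPKM after SRBC, against 49.9 and 60.9 after PBS.

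In the squalene steps, Fdft1, the squalene synthase, stood at 8.26 and 11.4 FPKM after SRBC, against 6.57 and 6.58 after PBS. The groups did not overlap, yet Fdft1 did not pass (log2 fold change 0.50, limma adjusted p = 0.18). Sqle (chr15:59315092-59331193), the epoxidase that commits squalene to sterols, stood at 9.99 and 14.5 FPKM after SRBC, against 4.29 and 5.12 after PBS. The groups did not overlap, with means of 12.3 ± 3.20 FPKM after SRBC and 4.70 ± 0.588 FPKM after PBS (SD, n = 2 each). Sqle rose with a log2 fold change of 1.20 ± 0.27 (SE, limma adjusted p = 0.0012) and was called in 12 of 14 alternatives, lost without SRBC library 2 (0.95, adjusted p = 0.14) and with no filter on low values. Lss, which closes squalene epoxide into lanosterol, stood at 3.57 and 1.66 FPKM after SRBC, against 1.61 and 3.98 after PBS. Its libraries differed more within a group than between groups.

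Among the enzymes that trim lanosterol, the demethylase Cyp51 (chr5:4080674-4104697) stood at 13.6 and 16.2 FPKM after SRBC, against 6.26 and 8.43 after PBS. Both SRBC libraries were above both PBS libraries, with means of 14.9 ± 1.89 FPKM after SRBC and 7.35 ± 1.53 FPKM after PBS (SD, n = 2 each), and Cyp51 rose with a log2 fold change of 0.94 ± 0.25 (SE, limma adjusted p = 0.0077). The call was also lost with TPM rescaling (0.56, adjusted p = 0.16) and without SRBC library 2 (0.81, adjusted p = 0.20). Msmo1 (chr8:64718123-64733578), the methylsterol oxidase listed as Sc4mol, stood at 13.03 and 14.7 FPKM after SRBC, against 3.97 and 6.61 after PBS. The groups did not overlap, with means of 13.8 ± 1.15 FPKM after SRBC and 5.29 ± 1.87 FPKM after PBS (SD, n = 2 each). It rose with a log2 fold change of 1.27 ± 0.26 (SE, limma adjusted p = 6.5e-04) and was called in 13 of 14 alternatives. With Msmo1 added, 7 of 30 loci were higher.

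The remaining sterol enzymes gave values on both sides of the PBS libraries and none passed the test. Sc5d, a sterol desaturase, stood at 11.2 and 12.7 FPKM after SRBC, against 7.87 and 7.17 after PBS, above in both libraries (log2 fold change 0.61, limma adjusted p = 0.086). Dhcr7, the reductase of a last step to cholesterol, stood at 2.19 and 3.79 FPKM after SRBC, against 4.27 and 4.68 after PBS, below in both (log2 fold change -0.49, limma adjusted p = 0.25). Ebp, the sterol isomerase, stood at 3.77 and 3.59 FPKM after SRBC, against 4.76 and 5.64 after PBS. These neighbours at the end of the route thus lay on opposite sides of their PBS values without passing the threshold in either direction. Hsd17b7, a sterol ketone reductase, stood at 2.16 and 2.71 FPKM after SRBC, against 1.14 and 2.20 after PBS. Nsdhl, a decarboxylating sterol dehydrogenase, stood at 7.09 and 7.63 FPKM after SRBC, against 7.69 and 7.64 after PBS, a difference smaller than the gap between the SRBC libraries. The locus of Tm7sf2, a sterol reductase, also carried the name 1110014N23Rik, and its 9.79 and 13.1 FPKM after SRBC spanned the 12.4 and 12.3 after PBS.

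**Figure D2:**
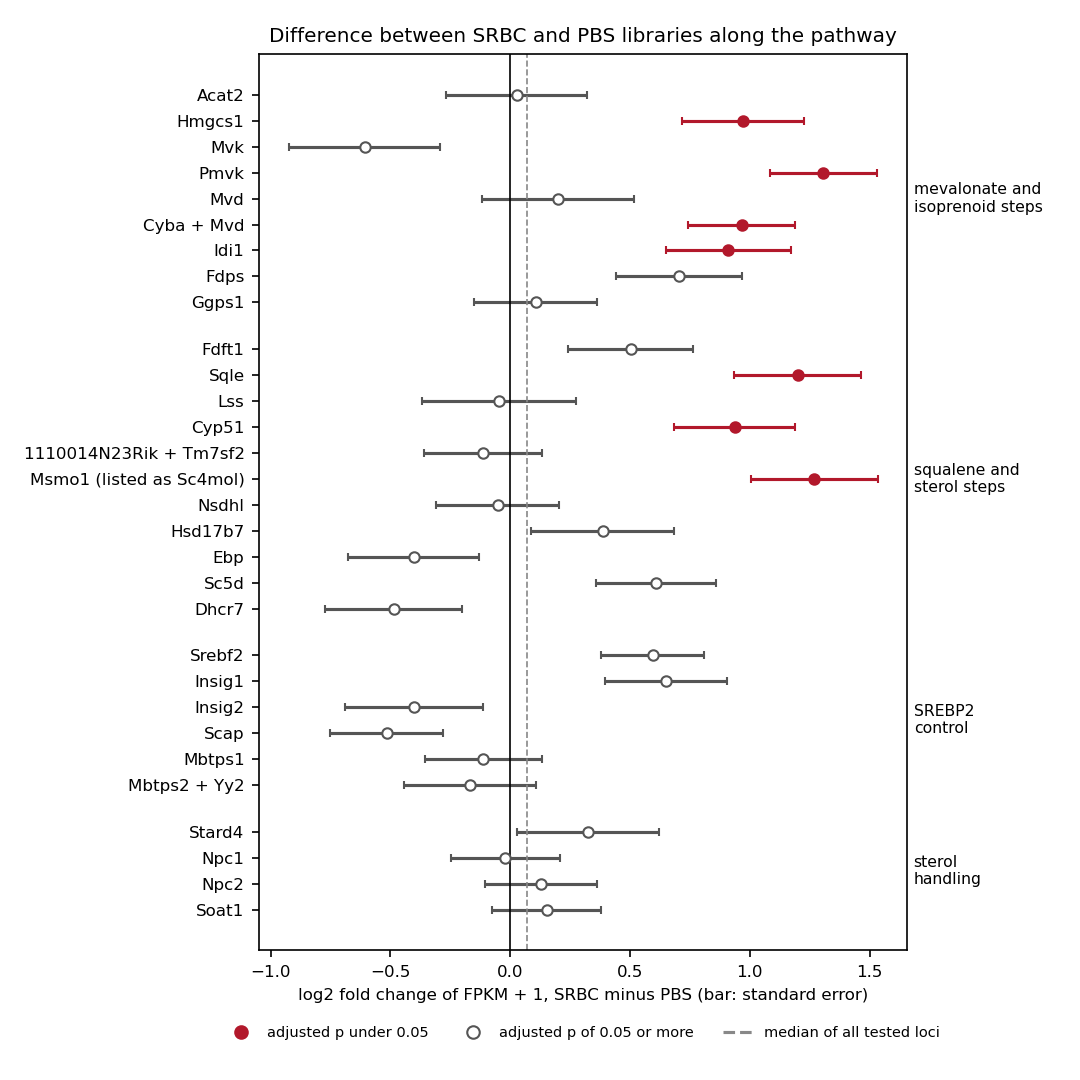
Log2 fold change of FPKM + 1, SRBC minus PBS, with its standard error for each member locus in pathway order. Filled red points passed the limma test (adjusted p under 0.05), and the dashed line is the median of all tested loci, 0.07. The filled points lie between 0.91 and 1.31 and belong to synthesis enzymes and the shared Cyba and Mvd locus.

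The stretches upstream of 5 genes that rose are shown because these genes moved in the same direction and because SREBP2 is known to act on such promoters with the factors NF-Y and Sp1. A stretch was shown only where it held a match to a motif marked below, so this choice fixed that each has a match. A further window of Pmvk, at another annotated start, held no match and is not shown. Sqle, which was also called, had no window. Sequences are RefSeq's for build GRCm38.p6, the 150 bases before the annotated start, written 5′ to 3′ on the gene's strand. Capitals mark matches to the core of the sterol regulatory element, TCACNCCAC, or to the NF-Y motif CCAAT, each searched on both strands, where CCAAT on the opposite strand reads ATTGG. No capitals of these motifs overlapped. Hmgcs1 lies at chr13:119690201-119690350 on the plus strand, Idi1 at chr13:8885456-8885605 on the plus strand, Pmvk at chr3:89454391-89454540 on the plus strand, Cyp51 at chr5:4104698-4104847 on the minus strand and Msmo1 at chr8:64733579-64733728 on the minus strand.
Hmgcs1: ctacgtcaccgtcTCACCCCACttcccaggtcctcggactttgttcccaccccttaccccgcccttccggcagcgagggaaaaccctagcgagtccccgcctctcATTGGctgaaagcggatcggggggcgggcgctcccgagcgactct
Idi1: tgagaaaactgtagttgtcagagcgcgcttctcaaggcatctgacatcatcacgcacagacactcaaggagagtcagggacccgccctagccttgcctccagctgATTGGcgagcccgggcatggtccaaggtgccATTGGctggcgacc
Pmvk: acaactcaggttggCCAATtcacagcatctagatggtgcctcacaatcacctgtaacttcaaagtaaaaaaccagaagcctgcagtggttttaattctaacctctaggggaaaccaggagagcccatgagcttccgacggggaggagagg
Cyp51: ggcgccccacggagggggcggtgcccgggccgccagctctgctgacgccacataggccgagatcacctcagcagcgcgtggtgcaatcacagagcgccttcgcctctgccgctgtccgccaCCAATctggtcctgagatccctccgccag
Msmo1: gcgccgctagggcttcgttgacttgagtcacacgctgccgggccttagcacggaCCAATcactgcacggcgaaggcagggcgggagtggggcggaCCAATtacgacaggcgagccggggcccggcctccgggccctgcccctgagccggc

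Among member genes with a window, Hmgcs1 alone held an exact match to TCACNCCAC, at position -137 from the RefSeq start. Variants of the sterol element that depart from these letters were not searched for, so other members may hold them. In its printed stretch Hmgcs1 also held a CCAAT match on the opposite strand at position -45. In the printed stretches Idi1 held CCAAT matches on the opposite strand at positions -45 and -14, Pmvk 1 at -136, Cyp51 1 at -29 and Msmo1 a pair at -96 and -55. Outside the printed bases, the searched windows held further CCAAT matches for Msmo1, at -160, and for Hmgcs1, at -237, -176 and 11. Each start was also compared with transcripts of the gene in GENCODE, another annotation. For 25 of the 30 windows of member genes, the bases just after the start matched the early part of such a transcript. The Hmgcs1 window did not, so its positions, -137 included, rest on the RefSeq start alone. The other printed stretches came from windows that did match. No window was matched for Fdft1, Fdps, Npc1, Sqle or Stard4. RefSeq windows of 300 bases (250 before and 50 after the start) were matched for 24 member genes. Of these, 1 held TCACNCCAC (4.2%, beside 1.44% of all 27025 genes with a window), 20 held CCAAT (83.3%, beside 41.06%) and 21 held the Sp1 motif GGGCGG (87.5%, beside 38.2%), each on either strand. All genes include non-coding ones, and the base composition of the windows was not matched. The matches are a description of letters and not of binding.

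Among SREBP2 control genes 0 of 6 loci passed the test. Srebf2 (chr15:82147269-82205379), which encodes SREBP2, was the most abundant member with a locus of its own, above 94.3% of tested loci by mean level. It stood at 93.9 and 104 FPKM after SRBC, against 64.1 and 65.9 after PBS. Both SRBC libraries lay well above both PBS libraries, but Srebf2 fell just outside the threshold (log2 fold change 0.59 ± 0.22 SE, limma adjusted p = 0.0502). It was called in 3 of 14 alternatives and its log2 fold change went as low as 0.071 with quantile normalization. Insig1 (chr5:28071412-28078662), the retention protein that SREBP2 itself induces, stood at 19.6 and 22.9 FPKM after SRBC, against 17.7 and 9.72 after PBS. The groups did not overlap, although the PBS libraries differed more from each other than the SRBC libraries did, and Insig1 did not pass (log2 fold change 0.65 ± 0.26 SE, limma adjusted p = 0.071). Without PBS library 1 it was called (1.05, adjusted p = 0.0016), and without PBS library 2 its log2 fold change was 0.25 (adjusted p = 0.57).

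Insig2 (chr1:121304353-121332662), the other retention protein, stood at 2.87 and 2.45 FPKM after SRBC, against 3.01 and 4.82 after PBS. Both SRBC libraries were below both PBS libraries by a small margin and Insig2 did not pass (log2 fold change -0.40 ± 0.29 SE, limma adjusted p = 0.36). Scap (chr9:110333288-110384949), the escort that carries SREBP2 to the Golgi, stood at 11.9 and 13.4 FPKM after SRBC, against 18.5 and 18.5 after PBS. Its groups did not overlap, with a log2 fold change of -0.52 ± 0.24 (SE, limma adjusted p = 0.13). Scap was the member called lower under all 4 rescalings, with log2 fold changes from -0.61 with median-of-ratios rescaling to -0.96 with TPM. Relative to the median of all tested loci in the same fit, the TPM value was -0.63.

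The proteases that release SREBP2 overlapped between groups. Mbtps1, which makes the initial cut, stood at 11.6 and 12.9 FPKM after SRBC, against 11.9 and 14.8 after PBS. The locus of Mbtps2, which makes the cut within the membrane, also carried the name Yy2 and stood at 4.32 and 4.99 FPKM after SRBC, against 4.55 and 6.24 after PBS. Nsdhl, Ebp and Mbtps2 are the members on the X chromosome.

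Genes that move or store cholesterol gave 0 calls of 4. Npc1 (chr18:12189694-12236506), the lysosomal membrane protein that exports cholesterol, stood at 21.6 and 24.4 FPKM after SRBC, against 22.96 and 23.7 after PBS (log2 fold change -0.02 ± 0.23 SE, limma adjusted p = 0.96). Npc2, its soluble partner in the lysosome, stood at 21.3 and 30.6 FPKM after SRBC, against 23.6 and 23.04 after PBS. Soat1 (chr1:156428108-156474328), which esterifies cholesterol for storage, stood at 24.7 and 27.7 FPKM after SRBC, against 21.4 and 25.6 after PBS (log2 fold change 0.15 ± 0.23 SE, limma adjusted p = 0.69). Stard4, a cytosolic sterol transfer protein, stood at 3.57 and 5.25 FPKM after SRBC, against 2.29 and 4.54 after PBS. All these overlapped between groups, and the summed FPKM of the 4 loci was 71.2 and 87.9 after SRBC, against 70.3 and 76.9 after PBS.

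**Figure D3:**
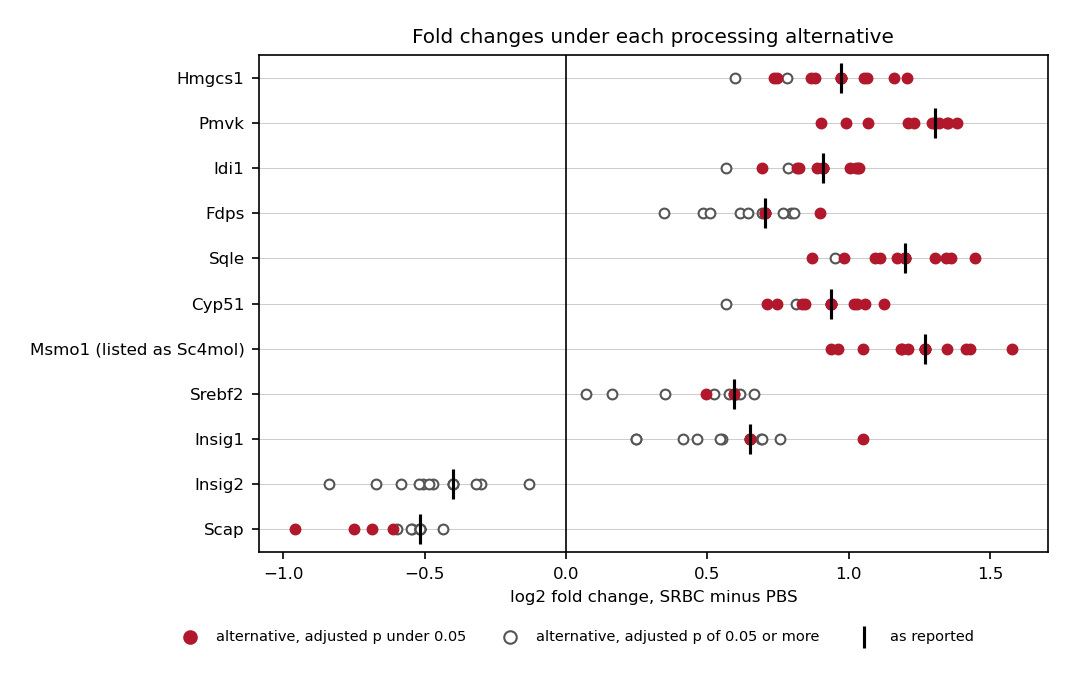
Log2 fold change, SRBC minus PBS, of 11 members under each processing alternative (points, filled where the adjusted p was under 0.05) and as reported (vertical tick). Pmvk and Msmo1 stay called in 13 of 14 alternatives, Fdps and Srebf2 in 3, and Scap is called in 4, all of them rescalings of the libraries.

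Counting both SRBC libraries against both PBS libraries, 11 of 29 member loci lay above (37.9%, beside 34.3% of all tested loci) and 5 lay below (17.2%, beside 24.7%). Those below were Nsdhl, Ebp, Dhcr7, Insig2 and Scap. In the authors' deposited table the q-value of the control against immunized comparison was 0.0010 for Pmvk, 0.0019 for Hmgcs1, 0.0019 for Msmo1 and 0.025 for Idi1. It was 0.032 for the locus shared by Cyba and Mvd. With Msmo1 counted apart, 4 of 29 member loci had a q under 0.05, beside 12.53% of all tested loci. The same table, the authors' deposited table, gave 0.10 for Sqle, 0.21 for Cyp51, 0.11 for Srebf2 and 0.29 for Insig1, so Sqle and Cyp51 were called in the limma fit and not at a q under 0.05 there.

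Further genes of the pathway came from lists chosen by function. Their counts stand beside 13.5% higher and 6.2% lower over all tested loci, whose median log2 fold change was 0.07. Whether any list differs from these shares was not tested. Of 9 tested genes among other sterol enzymes and electron donors, 2 were higher and 1 lower (median log2 fold change 0.18). Cyb5r3, a reductase that passes electrons to sterol oxidases, stood at 131 and 166 FPKM after SRBC, against 69.9 and 72.5 after PBS (log2 fold change 1.04). Por, which reduces cytochrome P450 enzymes such as CYP51, stood at 16.9 and 16.7 FPKM after SRBC, against 9.09 and 9.52 after PBS. Cyp27a1, a mitochondrial enzyme that makes an oxysterol, fell to 26.9 and 33.8 FPKM after SRBC, against 61.3 and 73.1 after PBS (log2 fold change -1.12). The Cyb5r3 call was lost with quantile normalization, and the Por call with TPM rescaling and without either SRBC library. Of the called genes named from this and the following lists, Lrp8 alone stayed called with no filter on low values.

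Among 15 other regulators and carriers of SREBP, 6 were higher and 0 lower, with a median log2 fold change of 0.40. All 6 (Sec24a, Sec24b, Sec24c, Sec23b, Sar1a and Sar1b) belonged to the COPII coat, which carries many cargoes besides SREBP out of the endoplasmic reticulum. Of the other COPII genes on the list, Sec23a lay below PBS in both SRBC libraries (log2 fold change -0.36) and Sec24d overlapped, and neither was called. Sec24a stood at 14.5 and 16.6 FPKM after SRBC, against 6.31 and 6.79 after PBS, Sar1a at 34.0 and 44.8 after SRBC, against 20.3 and 22.6 after PBS, and Sec24b at 48.6 and 53.7 after SRBC, against 30.0 and 28.9 after PBS. The Sec24c locus also carried the name Fut11. The count was 0 higher both after TPM rescaling and without SRBC library 2, 2 with quantile normalization and 3 without SRBC library 1 or PBS library 1. Srebf1, the sister gene of Srebf2 that favours fatty acid synthesis, stood at 6.26 and 6.92 FPKM after SRBC, against 6.52 and 7.18 after PBS.

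Genes of sterol uptake and transfer moved in both directions, 4 higher and 3 lower of 17 tested (median log2 fold change 0.14). Lrp8, a receptor of the low-density lipoprotein receptor family, rose to 40.9 and 42.3 FPKM after SRBC, against 7.61 and 7.75 after PBS (log2 fold change 2.30, limma adjusted p = 4.1e-09), and was called in 14 of 14 alternatives. Gramd1a, which moves cholesterol from the plasma membrane to the endoplasmic reticulum, rose to 80.1 and 77.3 FPKM after SRBC, against 19.9 and 15.4 after PBS. Its relative Gramd1b rose to 29.1 and 27.6 FPKM after SRBC, against 10.6 and 8.05 after PBS. Gramd1a and Gramd1b were called in 13 of 14 alternatives. Soat2 was the other gene called higher (log2 fold change 0.97). The genes called lower were Osbpl2, an oxysterol-binding protein relative (-1.22), Scarb1, a receptor for high-density lipoprotein (-1.08), and Mylip, which is also counted in the next list. Soat2, Osbpl2 and Scarb1 were named after their values were seen.

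In the efflux and LXR list 1 of 8 tested genes was higher and 2 lower (median log2 fold change 0.21). Nr1h3, which encodes the oxysterol-sensing receptor LXR alpha, rose to 10.2 and 9.94 FPKM after SRBC, against 3.06 and 2.86 after PBS. Mylip, an LXR target whose product degrades lipoprotein receptors, fell to 8.88 and 7.10 FPKM after SRBC, against 15.3 and 18.7 after PBS. Abcg1, a sterol exporter that LXR induces, fell to 7.61 and 8.02 FPKM after SRBC, against 11.5 and 18.0 after PBS. Other genes of the list that LXR is known to induce lay on the other side of 0 and were not called, with log2 fold changes of 0.57 for Arl4c, 0.32 for Lpcat3 and 0.21 for Abca1. The Abcg1 call was lost without PBS library 2 (adjusted p up to 0.39 over the alternatives) or either SRBC library, and the Mylip call was lost without SRBC library 2.

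Lipogenic and other SREBP targets gave 4 higher and 0 lower of 13 tested (median log2 fold change 0.15). Fabp5, a fatty acid carrier, rose to 110 and 135 FPKM after SRBC, against 14.4 and 24.6 after PBS. Scd1, the fatty acid desaturase, rose to 10.97 and 14.8 FPKM after SRBC, against 2.83 and 1.68 after PBS, and Elovl5, an elongase, to 85.5 and 94.7 after SRBC, against 42.1 and 44.6 after PBS. Among 14 users of isoprenoids 1 was higher and 2 lower (median log2 fold change -0.08). Rabggtb, a subunit of the enzyme that prenylates Rab GTPases, whose locus also carried the names Snord45b and Snord45c, rose to 27.7 and 31.2 FPKM after SRBC, against 13.2 and 19.1 after PBS, but the call was lost with quantile and TPM rescaling and without PBS library 1 or SRBC library 2. Coq2 and Trit1, which attach isoprenoid groups to the ubiquinone precursor and to tRNA, fell, to 10.6 and 11.8 FPKM after SRBC, against 18.5 and 19.0 after PBS for Coq2, and to 5.48 and 7.54 after SRBC, against 11.3 and 12.7 after PBS for Trit1. Both calls were lost without PBS library 2 or either SRBC library, and that of Coq2 also in the fit without a variance trend.

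**Figure D4:**
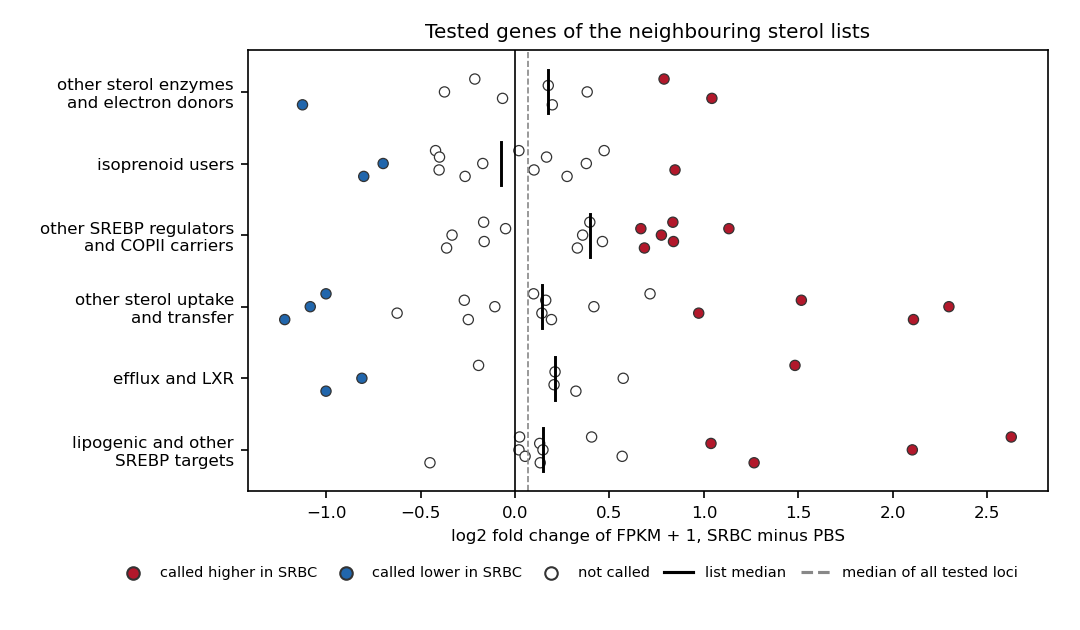
Log2 fold change of FPKM + 1, SRBC minus PBS, for each tested gene of 6 lists of neighbouring genes (rows), coloured red where called higher after SRBC, blue where called lower and white where not called, with list medians as vertical lines. List medians lie between -0.08 and 0.40, and the called genes of sterol uptake and transfer and of efflux fall on both sides of 0.

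Markers of other cells were detected, some of them at levels above most members, and several were called. Erythroid markers summed to 114 and 196 FPKM after SRBC, against 65.2 and 12.8 after PBS, with 4 of 5 tested loci higher. Neutrophil markers summed to 41.4 and 89.4 FPKM after SRBC, against 55.9 and 6.44 after PBS, with 3 of 3 tested higher. Of those, S100a8 and S100a9 overlapped between groups. Mmp8 was listed at 0 in PBS library 2. Red pulp macrophage markers summed to 188 and 227 FPKM after SRBC, against 92.2 and 88.3 after PBS, with 2 of 4 higher. Those were Hmox1, at 108 and 135 FPKM after SRBC, against 27.7 and 18.7 after PBS, and Spic, whereas Adgre1 stood at 33.6 and 36.7 FPKM after SRBC, against 44.3 and 54.1 after PBS, and was not called. Of 5 tested cDC1 markers 0 were higher and 2 lower, with sums of 78.5 and 105 FPKM after SRBC, against 128 and 111 after PBS. Of the B cell (5), T cell (1), NK cell (3) and plasmacytoid dendritic cell (5) markers tested, none was called. B cell markers summed to 20.4 and 42.5 FPKM after SRBC, against 32.5 and 20.7 after PBS, T cell markers to 3.11 and 5.84 after SRBC, against 6.52 and 1.95 after PBS, NK cell markers to 9.14 and 26.2 after SRBC, against 16.0 and 4.39 after PBS, and plasmacytoid markers to 52.1 and 81.6 after SRBC, against 98.4 and 43.4 after PBS. Between the PBS libraries, the sum of each of these marker lists was the higher in library 1, and Hmgcs1, Pmvk, Idi1, Sqle, Cyp51 and Msmo1 were the lower in library 1. Of the other members, Mvk, Fdps, Nsdhl, Sc5d, Insig1, Npc2 and the locus of Tm7sf2 were the higher in PBS library 1, and the rest the lower. Between the SRBC libraries, each marker sum and each member was the higher in library 2, apart from Fdps, Lss, Ebp, Insig2 and the locus named for Mvd alone. The part of other cells in the differences between the groups was not tested.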

How the data were processed

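RNA of sorted splenic CD4+ dendritic cells was sequenced by the authors on an Illumina HiSeq, with 100 ng of RNA per library in the Ovation and Encore kits, per the labels' protocols. The authors deposited FPKM values per locus, and q-values (adjusted p-values) of their own control against immunized comparison, per the file headers. The submitters' processing notes name build mm10, Cufflinks 2.1.1, TopHat2 2.0.8b and CASAVA. Annotation, strandedness and library scaling: not given in the sources used here. Members overlapping other genes therefore cannot be separated from them.

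Of 23657 loci with a gene name, the 11020 that reached FPKM 1 in 2 or more libraries were fitted with limma 3.58.1 in R 4.3.3 (lmFit, eBayes with trend) on log2(FPKM + 1), which understates changes of low genes, with 2 SRBC against 2 PBS libraries, two-sided, and Benjamini-Hochberg adjustment over all tested loci at 0.05. Residual degrees of freedom were 2 and prior ones 28.7. No exact permutation test could reach the threshold with 2 against 2 libraries (smallest two-sided p 0.333). On simulated data of 11020 loci for this comparison the limma fit recovered 100% of loci changed by 2 or -2, 72% of loci changed by 1 and 62% of loci changed by -1 on the log2 scale (50 each). It also called 12 unchanged loci. The simulated noise was normal at the spread that the fit itself estimated, so these shares rest on the assumptions of the fit. In lists a symbol with several loci was represented by that of highest mean; member loci were all kept. Named genes were every member, with fit values for those called and for Srebf2, Insig1, Insig2, Scap, Npc1 and Soat1, and up to 3 called genes of smallest p per list; fit values of other members and Srebf1 were added after their values were seen. Members and lists were chosen with earlier results of these data known. Alternatives changed the pseudocount, filter, library scaling, variance trend, replicate block or left out a library, whose group then kept a lone library assumed to vary like the other group. Coordinates and promoters are RefSeq's for GRCm38.p6, the build also called mm10.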

Additional observations from a re-analysis of the deposited data

How the results depend on the processing

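Among 14 alternatives the count of members called higher (6 of 29) moved by more than 1.5 times in 3: it was 0 with no filter on low values, where 23657 loci were tested and 83 were higher in all, 2 after rescaling to TPM, and between 2 and 8 when a library was left out, the lowest without SRBC library 2. A minimum FPKM of 5 gave 9 of 19, beside 19.7% of all loci that passed. The count called lower, 0 as reported, was 1 with median-of-ratios, upper-quartile, quantile and TPM rescaling, each time Scap, and 0 whenever a library was left out. With loci of several names removed it was 5 higher, and with Sc4mol counted as Msmo1 it was 7, both alternatives chosen after seeing the data. Fold changes of 13 loci were recomputed 181 times, of which 150 kept their direction and side of the threshold. These 13 were the called loci, Msmo1, Srebf2, Insig1, Insig2, Scap, Npc1 and Soat1. Among them, changes of sign were seen for Soat1 and Npc1, neither of them called. Soat1 gave -0.087 with upper-quartile rescaling, -0.15 with quantile normalization and -0.27 with TPM. Npc1 ranged over -0.10 to 0.061 among the fits that left out a library and reached -0.45 with TPM. Of the remaining members, none called, Acat2, Ggps1, Lss (-0.51 to 0.42), Mbtps1, Npc2, Stard4 and the loci of Mbtps2, Tm7sf2 and Mvd alone changed sign. Mvk, Fdps, Fdft1, Nsdhl, Hsd17b7, Ebp, Sc5d and Dhcr7 kept theirs. The cause of these changes was not tested. With the replicate number as a block, 8 members were higher and 0 lower, beside 15.3% and 5.63% of all tested loci. The added ones were Srebf2 and Fdps. The labels do not say that the numbers pair the samples, and the differences between replicates 1 and 2 correlated across loci between the groups at r = 0.052, so the numbers are taken as names only. Fragments per locus were not given, so the depth behind each value is known only roughly.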
